A study of Mus musculus with 204 samples.

Results

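Lean stomach was compared with lean duodenum, the gastric organ with the first segment of the small intestine. The comparison used 10 of the 204 libraries of a mouse tissue atlas. These were the 5 libraries titled stomach_lc of lean mice and the 5 titled duodenum of lean mice. The titles do not spell out lc, so the stomach libraries, lean and DIO, may stand for a region and not the whole stomach. The genes compared were those whose level, averaged over the 10 libraries, reached 10 CPM (the reads of a gene scaled to the same total in each library), which left 2083. All mice were wild-type C57BL/6J males, and none carried a transgene or a deletion. The lean mice ate chow with 13.1% fat. DIO (diet-induced obese) mice ate a diet with 60% fat for 10 weeks, and their 5 stomach and 5 duodenum libraries served as a second set in which the same contrast was measured. The labels count 5 mice on each diet but do not tie a library to a mouse, and they do not state the age at collection. They give an age of 6 to 12 weeks when the mice were bought and 4 weeks when the high-fat diet began. RNA came from frozen chunks of tissue, so each library mixed the mucosa with the muscle wall and whatever lay against it. The p-values measure the spread between these libraries.

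The stomach grinds and acidifies food. Its glandular part holds parietal cells, which secrete acid, chief cells, which secrete digestive enzymes, and surface cells, which secrete mucus, while the forestomach of the mouse is lined by a squamous, keratinising epithelium. The duodenum neutralises that acid and absorbs iron, calcium, sugars, lipids and amino acids through enterocytes, whose brush border carries the enzymes of the last step of digestion. HNF4 and CDX factors are known regulators of the intestinal epithelium, and SOX2 of the gastric one.

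The table held 13153 complete genes. The 13139 that matched the annotation lay on chromosomes 1, 2, 3 and X and at the start of chromosome 4. That is 23.7% of the annotated mouse genes, so the H+/K+ ATPase, pepsinogen, gastrin, gel-forming mucin and most keratin genes were not analysed here. The libraries held 13742015 to 21730577 reads in lean stomach and 21613462 to 25894100 reads in lean duodenum. The genes of the table took 14.1% ± 0.932 of the reads in lean stomach and 20.4% ± 0.299 in lean duodenum (SD, n = 5 each, two-sided exact permutation test, p = 0.00794). The library numbers in the labels came from separate series for the 2 tissues. What a series stands for is not stated, and it cannot be told apart from the tissue.

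Some libraries held genes typical of another tissue at levels apart from the rest of their group. Whether these came from neighbouring tissue was not tested. The summed level of the 4 surface mucous genes of the stomach was 423 CPM in lean duodenum library 3, against 19.1 to 140.4 CPM in the other lean duodenum libraries. In DIO duodenum that sum was 107 to 1030 CPM. Lean duodenum library 3 also had the lowest summed brush border level of its group, 11268 CPM, against 22115 to 26533 CPM in the others. Its smooth muscle sum, 4101 CPM, was the highest of the group. Lean stomach library 5 had 1123 CPM summed over the liver list without Cps1, whereas the other lean stomach libraries had 2.69 to 169 CPM. Lean stomach library 4 had the highest sum of the exocrine pancreas list, 83.2 CPM, against 16.2 to 37.4 CPM in the other lean stomach libraries and 0.326 to 2.02 CPM in lean duodenum. Counts below were therefore also taken without lean stomach library 5 and lean duodenum library 3. In bulk tissue, a lower level cannot be told apart between fewer cells of a type and less RNA per cell.

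With CPM as deposited, 413 genes (19.8% of those tested) were higher in lean stomach and 968 (46.5%) were higher in lean duodenum (limma on log2(CPM + 1), adjusted p under 0.05). At least 2-fold, 268 genes (12.9%) were higher in lean stomach and 563 (27.0%) in lean duodenum. The balance depended on the scale. The median difference over all genes, stomach minus duodenum, was -0.43 on the log2 scale, and median-of-ratios rescaling brought it to 0.00. After rescaling, 703 genes (33.7%) were higher in lean stomach and 674 (32.4%) in lean duodenum, and at least 2-fold 410 (19.7%) and 365 (17.5%). Under both scales 1087 genes passed in the same direction and 0 passed in opposite directions, and 633 of those 1087 passed at 2-fold or more under both.

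Without lean stomach library 5 and lean duodenum library 3, 470 genes (22.6%) were higher in stomach and 976 (46.9%) in duodenum. The 5 stomach libraries all lay above the 5 duodenum libraries for 260 genes (12.5%), and all lay below them for 748 (35.9%). Differences of single genes are given below on the rescaled log2(CPM + 1) scale as stomach minus duodenum ± SE. A gene is said to have been higher or lower only where it passed with both scales. Counts of lists are given with CPM as deposited, and beside them after rescaling where that changed them. They are to be read against all genes tested, of which 19.8% were higher in stomach and 46.5% in duodenum. After rescaling these shares were 33.7% and 32.4%. A gene near 0 in one tissue passed the filter through the other alone, so the counts of such lists are descriptions.

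**Figure D1:**
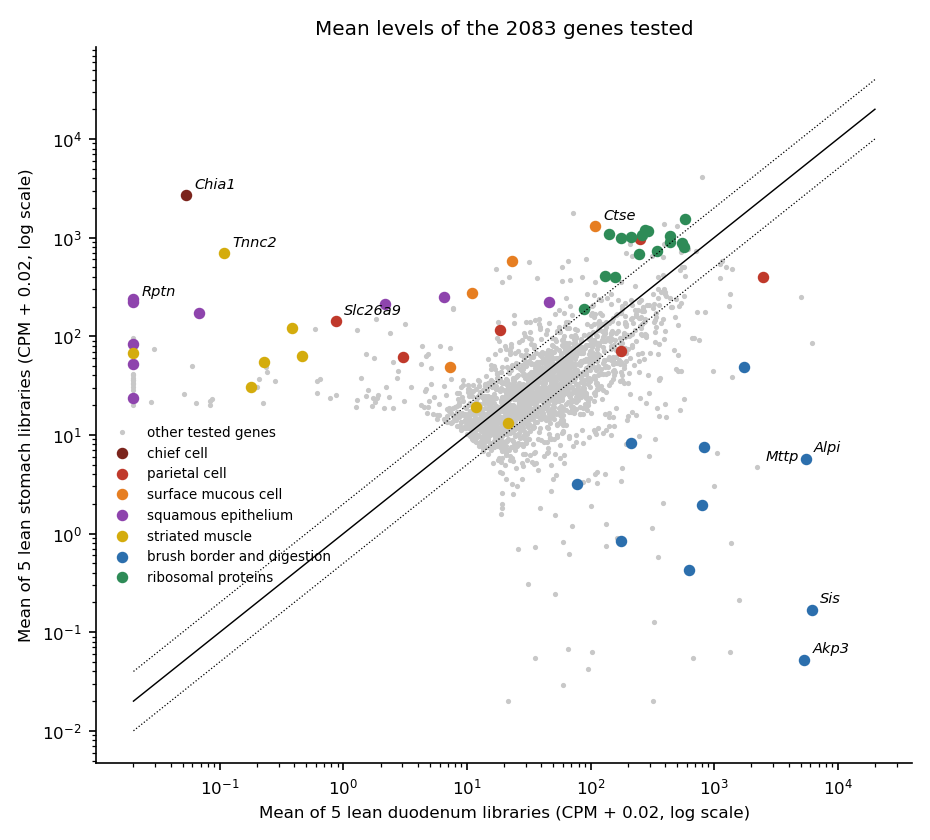
Mean level of each of the 2083 genes tested in 5 lean stomach libraries (vertical axis, CPM + 0.02, log scale) against 5 lean duodenum libraries (horizontal axis, same scale), with genes of 7 lists in colour and dotted lines at 2-fold. Chia1 averaged 2697 CPM in stomach and 0.0328 CPM in duodenum, whereas Sis averaged 0.149 CPM in stomach and 6160 CPM in duodenum.

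Short transcripts were higher in lean stomach as a class. The median rescaled difference was 1.85 for 100 genes whose longest annotated transcript was under 1 kb, 0.57 for 296 genes of 1 to 2 kb and 0.08 for 809 genes of 2 to 4 kb. It was -0.29 for 724 genes of 4 to 8 kb and -0.27 for 154 longer ones. Ribosomal protein genes, which encode the structural proteins of the ribosome and are mostly short, moved with this trend. Their 16 members in the table summed to 14064 CPM ± 5152 in lean stomach and 4909 CPM ± 1159 in lean duodenum (SD, n = 5 each, two-sided exact permutation test, p = 0.0159). The 2 groups overlapped, because lean stomach library 1, at 6293 CPM, lay below lean duodenum library 3, at 6706 CPM.

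Of the 16 ribosomal protein genes, 14 were higher in stomach and 0 in duodenum, or 15 and 0 after rescaling. With the trend on transcript length removed, which called 643 genes (30.9%) higher in stomach and 663 (31.8%) in duodenum, 9 were higher in stomach and 0 in duodenum. Rpl35, a protein of the large subunit, had 499.2, 1566, 1349, 1224 and 824.8 CPM in lean stomach libraries 1 to 5, against 135.7, 152.1, 190.4, 98.01 and 123.6 CPM in lean duodenum libraries 1 to 5. The groups did not overlap. The difference was 3.32 ± 0.35, and 2.03 with the length trend removed. Rps4x, a protein of the small subunit on chromosome X, averaged 800.1 CPM ± 278 in stomach and 566 CPM ± 157 in duodenum (SD, n = 5 each). Its difference of 0.91 ± 0.28 passed after rescaling but not with CPM as deposited, and it was -0.34 with the length trend removed. The part of transcript length and of the library number series in these values was not tested.

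**Figure D2:**
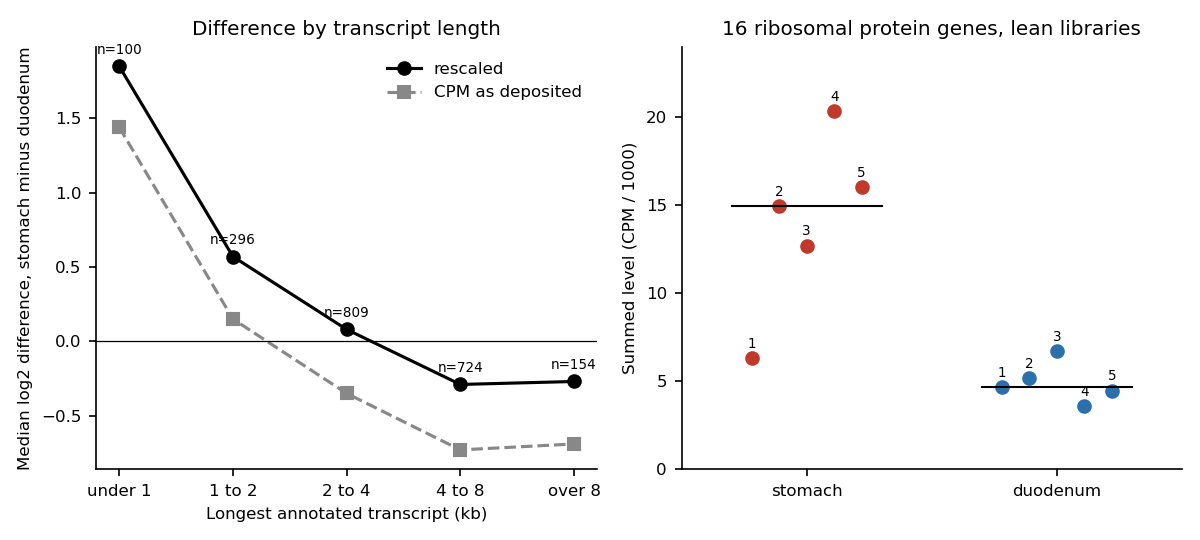
Left, median log2 difference of stomach minus duodenum in 5 classes of transcript length (kb), for CPM as deposited and after rescaling. Right, summed level of 16 ribosomal protein genes (CPM / 1000) in each lean library, numbered by replicate, with the median as a line. The median falls with transcript length up to 4 to 8 kb, and the stomach libraries spread from 6293 to 20333 CPM.

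Chia1 led the stomach side. It encodes acidic chitinase, an enzyme that mouse chief cells secrete. Chia1 had 5475, 1724, 1578, 2192 and 2514 CPM in lean stomach libraries 1 to 5, against 0.0386, 0.0463, 0.0396, 0.0397 and 0 CPM in lean duodenum libraries 1 to 5. In lean duodenum that was 4 reads in all. The difference was 11.42 ± 0.24. Chil4, a chitinase-like secreted protein of the same family, had 50.9, 535.9, 172.1, 53.7 and 272.8 CPM in lean stomach libraries 1 to 5 and 0 CPM in all 5 lean duodenum libraries. It was at least 8865-fold higher in stomach, taking 3 reads over the duodenum group as the floor. Members of this family resemble each other in sequence, and how shared reads were counted is not given in the labels used. The same holds for the Sprr, Lce, Clca, Adh, Gstm and Ugt1a genes and for Alpi and Akp3. Whether the counting used strand is not given either, so overlapping genes may have shared reads.

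Of the parietal cell list, 8 of 22 genes were in the table and 6 passed the filter. Of these, 4 were higher in stomach and 2 were lower, and the same genes did so after rescaling. Their median difference was 3.25, against 0.00 for all genes tested. Slc26a9, a chloride and bicarbonate transporter of the gastric mucosa, had 223, 93.4, 147.7, 109.8 and 140 CPM in lean stomach libraries 1 to 5. Lean duodenum libraries 1 to 5 had 0, 0.278, 2.89, 0.437 and 0.612 CPM. The difference was 6.72 ± 0.28. Esrrg, a nuclear receptor of parietal cells, averaged 62.3 CPM ± 57.6 in stomach and 3.02 CPM ± 1.99 in duodenum, a difference of 4.04 ± 0.44. Lean stomach library 1, at 160.9 CPM, held the highest level.

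Car2, carbonic anhydrase 2, which supplies protons for acid secretion, averaged 972 CPM ± 307 in stomach and 249.7 CPM ± 109 in duodenum. Its difference was 2.45 ± 0.26, and the groups did not overlap. Slc9a4, a sodium/proton exchanger of the parietal cell's basolateral side, had 175.8, 108, 100.2, 71.8 and 126.2 CPM in lean stomach libraries 1 to 5. Its levels in lean duodenum libraries 1 to 5 were 0.579, 4.95, 73.2, 10.9 and 2.61 CPM. The groups overlapped by lean duodenum library 3 alone. The difference was 4.25 ± 0.71.

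The 2 genes of that list with lower levels in stomach were transporters that many epithelia use. Slc9a2, another sodium/proton exchanger, averaged 70.4 CPM ± 15.8 in stomach and 176 CPM ± 29.3 in duodenum, a difference of -0.88 ± 0.20. Atp1b1, the beta subunit of the sodium pump, averaged 401 CPM ± 144 in stomach and 2504 CPM ± 431 in duodenum, a difference of -2.25 ± 0.26.

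All 4 surface mucous genes in the table passed the filter and were higher in stomach, out of 14 in the list. Their median difference was 5.34. Ctse, the aspartic protease cathepsin E, had 2086, 1177, 1330, 900.1 and 1026 CPM in lean stomach libraries 1 to 5, against 13.4, 66.0, 269.6, 129.2 and 62.0 CPM in lean duodenum libraries 1 to 5. The groups did not overlap, and lean duodenum library 3 was the highest of its group. The difference was 4.53 ± 0.55. Sptssb, a subunit of serine palmitoyltransferase, which starts sphingolipid synthesis, had 546 to 618 CPM in stomach. In lean duodenum it had 1.74, 2.13, 94.99, 4.45 and 11.3 CPM, with library 3 again highest, and the difference was 6.44 ± 0.71. Vsig1, a junction protein of the gastric epithelium, averaged 274 CPM ± 143 in stomach and 10.9 CPM ± 19.2 in duodenum, a difference of 6.14 ± 0.73. Capn8, a calpain of gastric surface cells, averaged 48.3 CPM ± 6.37 in stomach and 7.29 CPM ± 3.97 in duodenum, a difference of 3.10 ± 0.24.

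Other genes higher in stomach included Bpifb1, a secreted lipid-binding defence protein, with 48.2 to 155.9 CPM in stomach and 0 CPM in all 5 duodenum libraries. It was at least 3906-fold higher in stomach. Mal, a membrane protein of apical transport, averaged 481 CPM ± 48.6 in stomach and 17.3 CPM ± 30.1 in duodenum, where library 3 held 70.6 CPM and the others 1.43 to 11.1 CPM. Its difference was 6.55 ± 0.72. Adh7, the stomach's class IV alcohol dehydrogenase, averaged 109 CPM ± 45.3 in stomach and 2.34 CPM ± 0.668 in duodenum, a difference of 5.36 ± 0.21. Mogat1, a monoacylglycerol acyltransferase, averaged 117 CPM ± 17 in stomach and 1.26 CPM ± 1.01 in duodenum, a difference of 6.15 ± 0.25. Igfbp2, a secreted binder of insulin-like growth factors, averaged 119 CPM ± 28.8 in stomach and 0.566 CPM ± 0.429 in duodenum, a difference of 6.57 ± 0.19.

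**Figure D3:**
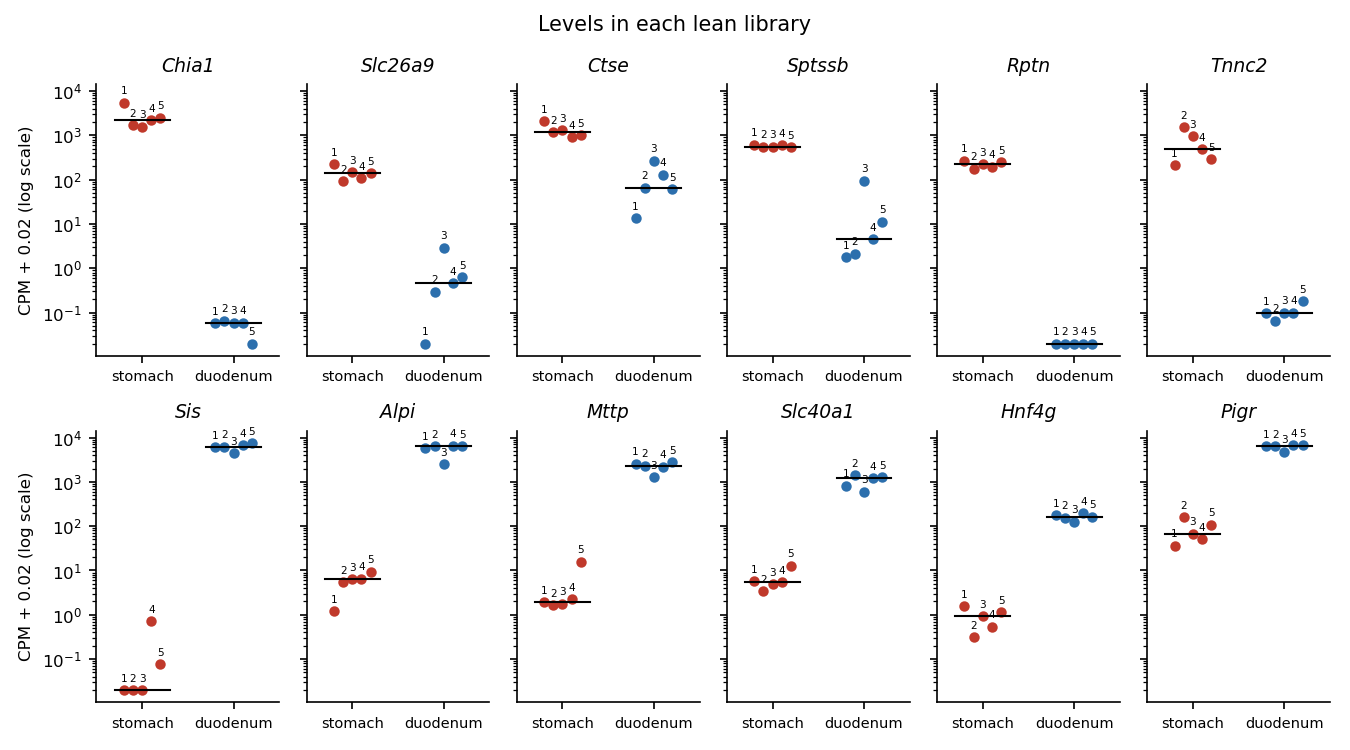
Level of 12 genes (CPM + 0.02, log scale) in each lean stomach and lean duodenum library, numbered by replicate, with the group median as a line. The 2 groups do not overlap for any of the 12, but most of these genes were named by a rule that asked for this. Of all genes tested, 12.5% lay above without overlap in stomach and 35.9% in duodenum. Lean duodenum library 3 is the highest of its group for Slc26a9, Ctse and Sptssb.

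Genes of the squamous epithelium were high in stomach and mostly at 0 in duodenum. Of the 25 genes of the list, 19 were in the table and 13 of those were at 0 in every lean duodenum library. The filter was passed by 9, and all 9 were higher in stomach, with a median difference of 6.45. Rptn (repetin), a protein of the cornified envelope, had 266.3, 178.4, 224.7, 196.3 and 244.8 CPM in lean stomach libraries 1 to 5, against 0 CPM in all 5 lean duodenum libraries. It was at least 9068-fold higher in stomach. Sprr3, a small proline-rich envelope protein, had 137.5 to 486 CPM in stomach and 0 CPM in all 5 duodenum libraries, and was at least 9793-fold higher. Crct1, whose gene lies in the same cluster on chromosome 3, had 57.6 to 108.8 CPM in stomach and 0 CPM in duodenum, and was at least 3371-fold higher.

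Lor, which encodes the envelope protein loricrin, averaged 172 CPM ± 68.6 in stomach and 0.0477 CPM ± 0.0650 in duodenum, a difference of 7.52 ± 0.22. Serpinb12, an epithelial serine protease inhibitor, averaged 74.5 CPM ± 23.4 in stomach and 0.00925 CPM ± 0.0207 in duodenum, a difference of 6.37 ± 0.23. Sprr1a averaged 213 CPM ± 67.2 in stomach and 2.16 CPM ± 1.01 in duodenum, a difference of 6.45 ± 0.28. Lce1a1 and Lce3a, late cornified envelope proteins with short transcripts, were at 0 in all 5 duodenum libraries and were at least 2142-fold and 975-fold higher in stomach. S100a14, a calcium-binding protein of squamous and other epithelia, averaged 249 CPM ± 107 in stomach and 6.49 CPM ± 6.88 in duodenum, a difference of 5.82 ± 0.51. The summed list was even across stomach, at 1317 to 1819 CPM, and 29.9 to 94.7 CPM in duodenum. Every stomach library held these transcripts at a similar summed level.

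Striated muscle genes were also higher in lean stomach. Of the 20 genes of the list, 13 were in the table and 8 passed the filter, of which 6 were higher in stomach and 0 in duodenum, or 7 and 0 after rescaling. Tnnc2, troponin C of fast skeletal muscle, had 211.2, 1530, 964, 483.7 and 293 CPM in lean stomach libraries 1 to 5. In lean duodenum libraries 1 to 5 it had 0.0772, 0.0463, 0.0791, 0.0794 and 0.163 CPM. The difference was 9.18 ± 0.50. The stomach libraries themselves differed, with library 2 highest and library 1 lowest. Ttn, the giant sarcomere protein titin, averaged 121 CPM ± 41.5 in stomach and 0.367 CPM ± 0.180 in duodenum, a difference of 6.70 ± 0.24. Neb (nebulin), which sets thin filament length, averaged 55.0 CPM ± 22.5 in stomach and 0.207 CPM ± 0.0953 in duodenum, a difference of 5.67 ± 0.29. Xirp2 was at 0 in all 5 duodenum libraries and at least 2767-fold higher in stomach. Myog, a transcription factor of skeletal muscle precursors that did not pass the filter, averaged 1.34 CPM ± 0.558 in stomach and was at 0 in all 5 duodenum libraries.

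The 4 adipocyte genes that passed the filter, of 13 in the list and 6 in the table, were all higher in stomach. Fabp4, the fatty acid carrier of adipocytes, which endothelial cells also make, had 285.7, 517.3, 537.8, 451.1 and 220.8 CPM in lean stomach libraries 1 to 5. Lean duodenum libraries 1 to 5 had 10.8, 17.9, 29.5, 37.4 and 13.3 CPM. The difference was 4.64 ± 0.38. Fabp5, a fatty acid carrier of squamous epithelium as well, averaged 571 CPM ± 86.2 in stomach and 31.6 CPM ± 47.5 in duodenum, a difference of 5.58 ± 0.62. Car3, carbonic anhydrase 3 of adipocytes and muscle, averaged 195 CPM ± 56.5 in stomach and 7.70 CPM ± 9.02 in duodenum, a difference of 5.45 ± 0.53. Pck1, an enzyme of glucose and glycerol synthesis in liver and fat, averaged 42.3 CPM ± 32.6 in stomach and 17.5 CPM ± 14.3 in duodenum. Its difference of 1.65 ± 0.46 passed, and so did that with CPM as deposited. Without the 2 libraries, the difference as deposited was 0.78 and no longer passed (limma, adjusted p = 0.143). Leaving out any of 6 single libraries also ended the call. The summed adipocyte list was 1083 to 1381 CPM in stomach and 32.9 to 174 CPM in duodenum. Fabp5 entered that sum, and its mean in stomach was the highest of 21 lean tissues, with mesenteric fat next at 450.4 CPM. Fabp4 averaged 403 CPM in stomach and 16535 CPM in lean retroperitoneal fat. The part of fat tissue in the sum was not tested.

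Genes that liver makes were highest in lean stomach library 5. Without Cps1, 5 genes of the liver list passed the filter, and all 5 were higher in stomach. They were so also without lean stomach library 5 and lean duodenum library 3. The filter was set on all 10 lean libraries in both cases, so a high level in library 5 helped genes to pass it. The stomach and duodenum groups overlapped for every gene of this list. Apoa2, an apolipoprotein of high-density lipoprotein, had 24.8, 2.33, 104.9, 38.0 and 497.9 CPM in lean stomach libraries 1 to 5, against 4.48, 3.56, 1.86, 2.58 and 3.22 CPM in lean duodenum libraries 1 to 5. Library 5 was the highest and library 2 lay within the duodenum's range. Fgb, the fibrinogen beta chain, had 10.6, 0.0728, 24.5, 7.53 and 172.1 CPM in those stomach libraries and 0.0397 to 0.502 CPM in duodenum. Fgg and Uox, the fibrinogen gamma chain and urate oxidase, were likewise highest in stomach library 5 and lowest in library 2. The call of Uox ended when any of 4 libraries was left out (limma, adjusted p = 0.053 to 0.059) and with a pseudocount of 5, and that of Apoa2 with the length trend removed (1.70, adjusted p = 0.17). With CPM as deposited, the difference of Apoa2 was 3.46, and 2.47 without the 2 libraries. In DIO mice 0 of these 5 genes passed, and the sum of the list was 2.34 to 5.35 CPM in 4 DIO stomach libraries and 144 CPM in the fifth.

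**Figure D4:**
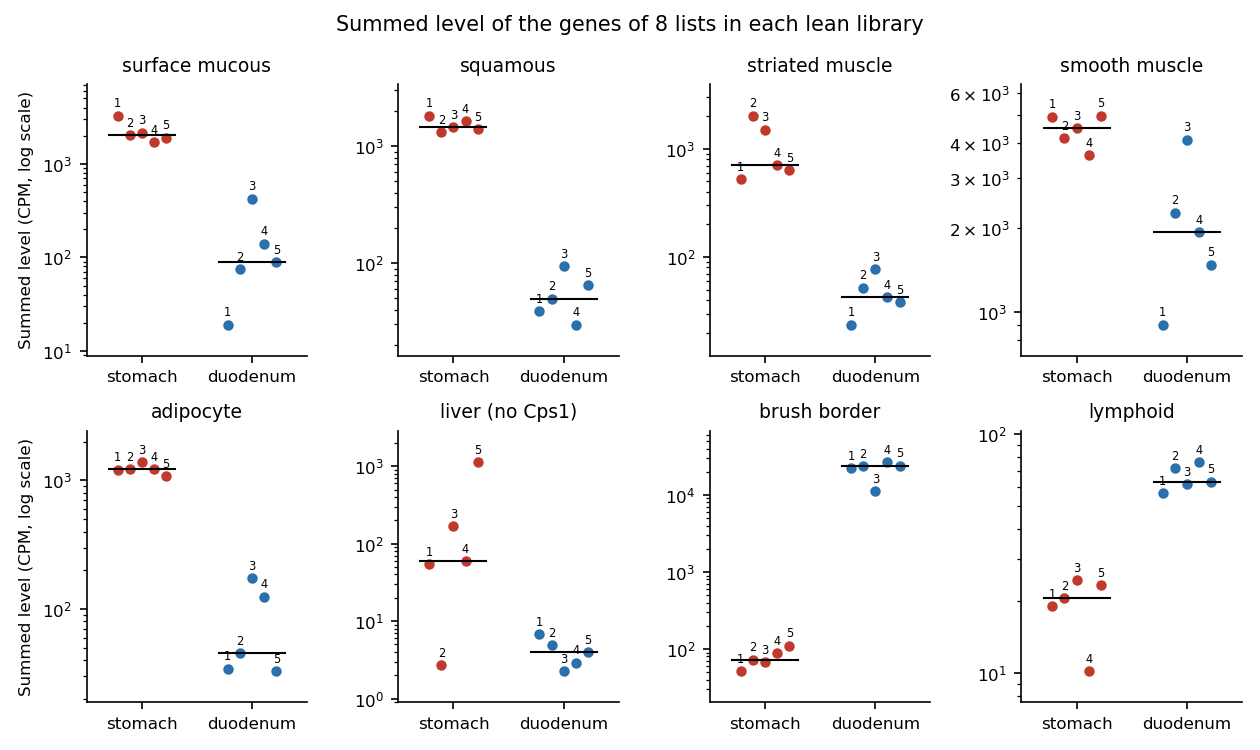
Summed level (CPM, log scale) of the genes of 8 lists in each lean stomach and lean duodenum library, numbered by replicate, with the median as a line. Lean stomach library 5 stands out for the liver list, at 1123 CPM, and lean duodenum library 3 for the surface mucous list, at 423 CPM, and for the brush border list, at 11268 CPM.

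Endocrine genes split. Of the 28 genes of the list, 16 were in the table and 2 passed the filter, 1 in each direction. Chgb, a granin of secretory granules, averaged 115 CPM ± 35.9 in stomach and 77.0 CPM ± 10.4 in duodenum, a difference of 0.97 ± 0.20. With CPM as deposited it was 0.53 (limma, adjusted p = 0.043), and 0.47 without the 2 libraries (limma, adjusted p = 0.068). The call as deposited ended when any of 7 libraries was left out. Scg2, another granin, which enteric neurons also make, averaged 8.51 CPM ± 3.49 in stomach and 29.8 CPM ± 19.6 in duodenum, a difference of -1.16 ± 0.30. Hdc, which makes histamine in the enterochromaffin-like cells of the stomach, did not pass the filter. It had 10.99 to 21.6 CPM in stomach and 0.489 to 1.24 CPM in duodenum. Pcsk2, a prohormone convertase, averaged 13.0 CPM ± 2.94 in stomach and 2.58 CPM ± 1.63 in duodenum, also below the filter.

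Regulators came next. Of the 36 genes of the list, 26 were in the table and 14 passed the filter, of which 3 were higher in stomach and 8 in duodenum, or 3 and 6 after rescaling. Among all genes tested 19.8% and 46.5% were, so these shares lay near those of all genes. Foxa2, a forkhead factor of endoderm, had 58.2, 49.5, 49.8, 32.6 and 45.2 CPM in lean stomach libraries 1 to 5, against 3.13, 3.15, 10.2, 4.17 and 4.61 CPM in lean duodenum libraries 1 to 5. The difference was 3.48 ± 0.22. Id1, an inhibitor of basic helix-loop-helix factors, averaged 259 CPM ± 67.1 in stomach and 107 CPM ± 12.7 in duodenum, a difference of 1.68 ± 0.25. The third gene higher in stomach was Esrrg. Sox2 did not pass the filter, with 5.29 to 12.5 CPM in stomach and 0 to 1.54 CPM in duodenum, where library 3 was again the highest.

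Hnf4g, a nuclear receptor of the intestinal epithelium, had 1.56, 0.291, 0.909, 0.518 and 1.14 CPM in lean stomach libraries 1 to 5. Its levels in lean duodenum libraries 1 to 5 were 174.4, 154.4, 127.2, 199.3 and 163.9 CPM. The difference was -6.17 ± 0.22. Its paralog Hnf4a, which gastric epithelium also uses, had 102.1, 43.9, 62.8, 66.5 and 88.5 CPM in lean stomach libraries 1 to 5, against 482, 533.1, 385.2, 472.5 and 485.6 CPM in lean duodenum libraries 1 to 5. The difference was -2.29 ± 0.21. Neither gene's groups overlapped. Nr1i3, the nuclear receptor CAR, averaged 3.26 CPM ± 6.70 in stomach and 113 CPM ± 26.4 in duodenum, a difference of -5.47 ± 0.63, and lean stomach library 5 held 15.2 CPM of it. Nr1h3, the oxysterol receptor LXR alpha, averaged 10.7 CPM ± 3.36 in stomach and 38.4 CPM ± 8.09 in duodenum, a difference of -1.36 ± 0.28. Elf3, an epithelial ETS factor, averaged 265 CPM ± 39.2 in stomach and 401 CPM ± 72.0 in duodenum. It passed only with CPM as deposited and had a rescaled difference of -0.15 ± 0.25.

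Promoters of genes that differed were read to show what sequence lies at the start sites of the genes furthest apart. Promoter sequences are RefSeq's, on GRCm38.p6, from 250 bases before to 50 bases after a gene's start. A promoter was listed for 212 of 268 genes that were at least 2-fold higher in stomach with both scales, for 296 of 365 such genes higher in duodenum and for 1740 of the 2083 tested. Matches to 6 motifs were counted on both strands. Sis and Chia1 show the genes with the largest difference on each side. Alpi, Pdzk1 and Gimd1 hold the HNF4 motif and were higher in duodenum, and Fhl1 holds it and was higher in stomach. They were chosen after their values were seen. Capitals mark a motif, and the sequences run in the direction of the gene. The promoter of Chia1 spans chr3:106113132-106113431 on the plus strand, that of Fhl1 chrX:56786277-56786576 on the plus strand and that of Sis chr3:72967814-72968113 on the minus strand. Those of Alpi, Pdzk1 and Gimd1 span chr1:87101557-87101856 on the minus strand, chr3:96829815-96830114 on the plus strand and chr3:132629596-132629895 on the plus strand.
Chia1: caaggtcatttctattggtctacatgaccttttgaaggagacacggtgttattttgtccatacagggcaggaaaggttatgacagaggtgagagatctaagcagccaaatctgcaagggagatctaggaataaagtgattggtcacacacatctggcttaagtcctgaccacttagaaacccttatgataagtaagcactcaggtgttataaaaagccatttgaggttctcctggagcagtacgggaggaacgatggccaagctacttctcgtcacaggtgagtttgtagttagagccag
Fhl1: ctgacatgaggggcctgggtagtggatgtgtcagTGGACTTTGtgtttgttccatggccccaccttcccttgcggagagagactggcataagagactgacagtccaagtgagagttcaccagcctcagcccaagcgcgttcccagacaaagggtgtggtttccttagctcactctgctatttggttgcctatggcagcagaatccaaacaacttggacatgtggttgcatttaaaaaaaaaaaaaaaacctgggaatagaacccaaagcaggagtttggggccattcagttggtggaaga
Sis: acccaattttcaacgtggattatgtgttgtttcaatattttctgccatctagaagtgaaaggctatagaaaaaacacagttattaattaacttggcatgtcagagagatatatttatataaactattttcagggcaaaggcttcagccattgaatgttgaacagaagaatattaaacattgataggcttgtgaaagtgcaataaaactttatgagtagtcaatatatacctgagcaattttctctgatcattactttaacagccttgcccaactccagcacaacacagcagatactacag
Alpi: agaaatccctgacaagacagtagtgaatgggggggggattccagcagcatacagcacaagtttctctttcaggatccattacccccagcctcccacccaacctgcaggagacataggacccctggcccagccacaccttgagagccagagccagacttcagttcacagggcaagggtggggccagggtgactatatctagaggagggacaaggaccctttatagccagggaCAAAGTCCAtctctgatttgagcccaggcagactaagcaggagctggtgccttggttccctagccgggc
Pdzk1: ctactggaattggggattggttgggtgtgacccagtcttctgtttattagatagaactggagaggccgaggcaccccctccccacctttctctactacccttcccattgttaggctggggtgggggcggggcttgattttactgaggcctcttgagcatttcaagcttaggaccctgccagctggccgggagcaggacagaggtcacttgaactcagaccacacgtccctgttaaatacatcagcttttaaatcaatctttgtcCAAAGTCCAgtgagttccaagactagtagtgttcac
Gimd1: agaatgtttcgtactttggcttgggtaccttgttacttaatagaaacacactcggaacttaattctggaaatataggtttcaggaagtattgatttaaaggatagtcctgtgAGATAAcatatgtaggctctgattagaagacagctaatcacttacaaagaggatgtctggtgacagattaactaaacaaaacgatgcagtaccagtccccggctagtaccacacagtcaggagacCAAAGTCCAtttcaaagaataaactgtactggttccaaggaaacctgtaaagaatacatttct

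The HNF4 motif CAAAGTCCA lay in a promoter of 1 of 212 genes higher in stomach (0.472%) and of 6 of 296 genes higher in duodenum (2.03%). Among all genes tested it lay in 10 of 1740 (0.575%), and among all 27025 genes of the promoter table in 150 (0.555%). The 6 genes were Alpi, Pdzk1, Gimd1, Osbpl6, Cd302 and Sec16b. The HNF1 motif was found for 0 genes higher in stomach and 2 higher in duodenum (0.676%), against 0.402% of all tested. The CDX motif, spelled TTTATGG, was in 1.89% of genes higher in stomach and 2.70% of those higher in duodenum, against 2.24% of all tested. For the GATA motif, which reads AGATAA, the shares were 8.96% and 10.5%, against 8.62%. For the FOXA motif, with the letters TGTTTAC, they were 2.83% and 3.38%, against 3.10%. ESRR, TCAAGGTCA, was found for 1 gene higher in stomach and 0 higher in duodenum, against 0.287% of all tested. The motif of Alpi begins 19 bases before the start, that of Gimd1 13 bases before it and that of Pdzk1 15 bases after it. That of Fhl1 is on the opposite strand, at 216 bases before the start, and no printed motif overlaps another. These matches describe letters, and no binding was measured.

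The 2 largest differences on the duodenal side, those of Sis and Akp3, were of brush border genes. Of the 28 genes of the list, 14 were in the table and 10 passed the filter. All 10 were lower in stomach, with a median difference of -7.13 against 0.00 for all genes tested. Sis, the sucrase-isomaltase that splits sucrose and starch ends, had 0, 0, 0, 0.690 and 0.0571 CPM in lean stomach libraries 1 to 5, against 6118, 6236, 4369, 6682 and 7395 CPM in lean duodenum libraries 1 to 5. The difference was -12.14 ± 0.25. Lct, the lactase that splits milk sugar, averaged 0.407 CPM ± 0.229 in stomach and 628 CPM ± 317 in duodenum, a difference of -8.35 ± 0.38.

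The intestinal alkaline phosphatases Alpi and Akp3 lie next to each other on chromosome 1. Akp3 had 0.0460, 0, 0.0606, 0 and 0.0571 CPM in lean stomach libraries 1 to 5, against 4962, 6465, 2012, 7913 and 5376 CPM in lean duodenum libraries 1 to 5, a difference of -11.98 ± 0.35. Alpi had 1.20, 5.38, 6.30, 6.499 and 9.31 CPM in those stomach libraries and 5743, 6322, 2507, 6596 and 6422 CPM in those duodenum libraries, a difference of -9.34 ± 0.45. Lean duodenum library 3 was the lowest of its group for both. Alpi, unlike Akp3, had a low level in every stomach library.

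Peptidases of the brush border followed. Mme (neprilysin) averaged 1.91 CPM ± 0.860 in stomach and 799.9 CPM ± 235 in duodenum, a difference of -7.75 ± 0.28. Dpp4, which trims dipeptides and cleaves incretin hormones, averaged 8.35 CPM ± 3.67 in stomach and 211 CPM ± 48.4 in duodenum, a difference of -4.13 ± 0.28. Enpep, glutamyl aminopeptidase, differed by -3.97 ± 0.30.

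Structural genes of the microvillus were lower as well. Vil1 (villin), which bundles its actin, averaged 48.6 CPM ± 16.4 in stomach and 1738 CPM ± 394 in duodenum, a difference of -4.73 ± 0.33. Pdzk1, a scaffold of apical transporters, had 0.276, 0.0728, 0, 0.173 and 3.54 CPM in lean stomach libraries 1 to 5, against 257.8, 140.9, 64.8, 215.3 and 205.4 CPM in lean duodenum libraries 1 to 5. The difference was -6.52 ± 0.49, and the highest stomach value was in library 5, which had the highest sum of the liver list. Cdh17, a cadherin of intestinal epithelium, averaged 0.0436 CPM ± 0.0477 in stomach and 1341 CPM ± 300.1 in duodenum, a difference of -10.06 ± 0.22. Tm4sf20, a tetraspanning membrane protein, averaged 0.191 CPM ± 0.0978 in stomach and 1592 CPM ± 567 in duodenum, a difference of -10.03 ± 0.31. 2010106E10Rik was at 0 in all 5 stomach libraries and at least 9324-fold higher in duodenum. Tmem236 averaged 0.106 CPM ± 0.121 in stomach and 327 CPM ± 73.5 in duodenum.

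All 8 lipid absorption genes in the table, out of 24 in the list, passed the filter. Of these, 3 were higher in stomach and 4 in duodenum, against 19.8% and 46.5% of all genes tested. After rescaling 4 and 4 were, against 33.7% and 32.4%. The duodenal share as deposited thus lay near that of all genes. Mttp, which loads lipid onto apolipoprotein B, had 1.89, 1.60, 1.76, 2.24 and 15.9 CPM in lean stomach libraries 1 to 5. The 5 duodenum libraries, in the same order, had 2590, 2322, 1270, 2193 and 2734 CPM. The difference was -8.67 ± 0.45. With CPM as deposited it was -9.04, and -9.74 without the 2 libraries. Fabp2, the intestinal fatty acid carrier, had 29.3, 190.9, 155, 376.7 and 252.9 CPM in lean stomach libraries 1 to 5, against 2175, 1273, 572.6, 1054 and 1477 CPM in lean duodenum libraries 1 to 5. The difference was -2.52 ± 0.65. Fabp2 was thus present in stomach, at levels that differed between the libraries, with library 1 lowest.

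Slc27a4, which takes up and activates long-chain fatty acids, averaged 44.4 CPM ± 10.2 in stomach and 511 CPM ± 169 in duodenum, a difference of -3.0 ± 0.33. Gk, glycerol kinase, averaged 25.2 CPM ± 7.85 in stomach and 109 CPM ± 29.9 in duodenum, a difference of -1.63 ± 0.26. Among the genes of this list higher in stomach were Mogat1 and Pck1, given above.

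Genes of iron and calcium uptake were lower in stomach or did not pass. Of the 15 genes of the list, the 6 in the table passed the filter, and 4 were lower in stomach and 0 higher. Slc40a1 (ferroportin), the only known cellular iron exporter, had 5.80, 3.42, 4.91, 5.41 and 12.8 CPM in lean stomach libraries 1 to 5, against 825.2, 1403, 599.1, 1213 and 1264 CPM in lean duodenum libraries 1 to 5. The difference was -6.79 ± 0.31. Heph (hephaestin), the ferroxidase that works with ferroportin, averaged 1.12 CPM ± 0.322 in stomach and 316 CPM ± 83.7 in duodenum, a difference of -6.85 ± 0.27. Cybrd1, the ferric reductase of the apical side, had 65.9, 116.3, 116.4, 150.6 and 82.7 CPM in lean stomach libraries 1 to 5. In lean duodenum libraries 1 to 5 it had 90.7, 268.6, 120.9, 803.6 and 93.8 CPM. These groups overlapped, and the rescaled difference of -0.42 ± 0.56 did not pass. Lean duodenum library 4 alone held a high level.

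S100g, the calbindin that carries calcium through enterocytes, had 1.66, 24.2, 5.94, 19.8 and 25.0 CPM in lean stomach libraries 1 to 5. Lean duodenum libraries 1 to 5 had 712.4, 477.1, 134.2, 451 and 281.1 CPM. The difference was -4.47 ± 0.68, and -6.79 with the length trend removed. Slc30a10, a manganese exporter, averaged 0.557 CPM ± 0.877 in stomach and 351 CPM ± 129 in duodenum, a difference of -7.60 ± 0.39.

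All 6 nutrient transporters that passed the filter were lower in stomach, of 20 in the list and 10 in the table. Slc2a2, the sugar carrier GLUT2 of the enterocyte's basolateral side, had 0.644, 0, 0.849, 0.575 and 12.8 CPM in lean stomach libraries 1 to 5. Its levels in lean duodenum libraries 1 to 5 were 892.5, 1081, 611.4, 1142 and 1214 CPM. The difference was -8.42 ± 0.57, and the high stomach value was again in library 5. Slc6a8, the creatine transporter, averaged 46.8 CPM ± 4.19 in stomach and 491 CPM ± 133 in duodenum, a difference of -2.87 ± 0.28. Slc23a2, a vitamin C transporter, averaged 9.67 CPM ± 4.31 in stomach and 245 CPM ± 70.1 in duodenum, a difference of -4.16 ± 0.28. Slc19a3, a thiamine transporter, averaged 0.223 CPM ± 0.223 in stomach and 51.2 CPM ± 13.8 in duodenum, a difference of -5.15 ± 0.30. The smallest differences were those of Slc16a1, a carrier of lactate and other monocarboxylates, at -1.10 ± 0.15, and of Slc52a3, a riboflavin transporter, at -0.50 ± 0.19.

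The small intestine makes citrulline from glutamine and exports it for arginine synthesis in the kidney. Of 12 genes in the list, the 5 in the table passed the filter; 1 was higher in stomach and 3 in duodenum, or 2 and 3 after rescaling. Cps1, the mitochondrial carbamoyl phosphate synthetase, had 1.70, 0.218, 9.09, 1.84 and 76.5 CPM in lean stomach libraries 1 to 5. The 5 duodenum libraries, in the same order, had 443, 610.7, 690.2, 417.7 and 461.6 CPM. The difference was -6.09 ± 0.84. Otc, which joins carbamoyl phosphate to ornithine, averaged 4.15 CPM ± 8.22 in stomach and 113 CPM ± 13.5 in duodenum, a difference of -5.28 ± 0.63. Both were highest in stomach library 5, which had the highest sum of the liver list without Cps1, and both are also liver enzymes. The part of liver tissue in these values was not tested. Slc25a12, a mitochondrial aspartate/glutamate carrier, went the other way, with 41.5 CPM ± 9.80 in stomach and 17.4 CPM ± 8.98 in duodenum, a difference of 1.72 ± 0.22. Ass1, which uses citrulline, had 15.6, 6.99, 17.9, 10.4 and 108.5 CPM in lean stomach libraries 1 to 5 and 3.38 to 22.2 CPM in lean duodenum. It did not pass with CPM as deposited.

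Secretory and defence genes divided between the tissues. Of 26 in the list, 12 were in the table and 7 passed the filter. Of these, 3 were higher in stomach and 3 in duodenum, against 19.8% and 46.5% of all genes tested. Pigr, the receptor that carries immunoglobulin A into the lumen, had 36.5, 161.8, 67.9, 50.9 and 107.9 CPM in lean stomach libraries 1 to 5. In lean duodenum libraries 1 to 5 it had 6415, 6434, 4771, 6645 and 6725 CPM. The difference was -5.91 ± 0.38. Itln1, an intelectin that binds microbial sugars, averaged 0.735 CPM ± 0.446 in stomach and 134 CPM ± 22.5 in duodenum, a difference of -5.98 ± 0.23. Duox2, which makes hydrogen peroxide at the mucosal surface, averaged 35.5 CPM ± 12.6 in stomach and 12.5 CPM ± 7.84 in duodenum, a difference of 2.10 ± 0.50. Its maturation factor Duoxa2 averaged 22.2 CPM ± 9.39 in stomach and 3.09 CPM ± 1.71 in duodenum, a difference of 2.91 ± 0.44. The third gene higher in stomach was Bpifb1.

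The 4 Clca genes that passed the filter, of 8 in the family, were lower in stomach by limma. Clca1, secreted by goblet cells, had 81.8, 644.6, 309.9, 620.9 and 300 CPM in lean stomach libraries 1 to 5, against 954.5, 1155, 944.9, 1250 and 1311 CPM in lean duodenum libraries 1 to 5. Its difference was -1.38 ± 0.53, which passed with limma but not with edgeR (adjusted p = 0.089) or DESeq2 (adjusted p = 0.052). Clca4b averaged 0.0351 CPM ± 0.0518 in stomach and 677 CPM ± 198 in duodenum, a difference of -9.06 ± 0.27. Clca3b differed by -5.68 ± 0.23 and Clca4a by -4.41 ± 0.57. Of the 4, Clca1 had the highest level in stomach, with library 1 lowest. Lean duodenum library 3 was the highest of its group for Clca3b, at 110.1 CPM, and the lowest for Clca4a, at 10.6 CPM. Dnajc10, a redox chaperone of the endoplasmic reticulum, averaged 104 CPM ± 33.6 in stomach and 196 CPM ± 259 in duodenum, where library 3 held 657.3 CPM. Its difference did not pass with either scale.

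Alcohol and retinol genes were mostly lower in stomach. Of 18 genes in the list, 11 were in the table and 6 passed the filter, of which 1, Adh7, was higher in stomach and 5 in duodenum, or 1 and 4 after rescaling. The Adh genes lie in a row on chromosome 3 and went different ways. Adh6a had 0.644, 0.509, 0.303, 1.67 and 0.800 CPM in lean stomach libraries 1 to 5, against 1919, 1353, 822.9, 1528 and 1176 CPM in lean duodenum libraries 1 to 5, a difference of -9.24 ± 0.30. Adh1, the class I enzyme that oxidises ethanol and retinol, averaged 95.9 CPM ± 31.8 in stomach and 666 CPM ± 240.3 in duodenum, a difference of -2.33 ± 0.27. Adh4 averaged 1.51 CPM ± 2.90 in stomach and 51.9 CPM ± 27.4 in duodenum, a difference of -4.55 ± 0.54. Lrat, which esterifies absorbed retinol, differed by -4.38 ± 0.30.

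Of 27 xenobiotic genes, 19 were in the table and 15 passed the filter. Among these 15, 3 were higher in stomach and 10 in duodenum, against 19.8% and 46.5% of all genes tested. Ada, adenosine deaminase, had 32.8, 43.1, 51.3, 34.2 and 31.3 CPM in lean stomach libraries 1 to 5. Lean duodenum libraries 1 to 5 had 2617, 995.4, 307.1, 2047 and 987.6 CPM. The difference was -4.39 ± 0.54, and the duodenum libraries spread widely while those of stomach did not. Maoa, which breaks down serotonin and other amines, averaged 9.07 CPM ± 1.68 in stomach and 332 CPM ± 118 in duodenum, a difference of -4.58 ± 0.25. Ugt1a7c, a glucuronosyltransferase, averaged 3.42 CPM ± 3.21 in stomach and 177 CPM ± 31.5 in duodenum, a difference of -5.18 ± 0.35. Fmo5 and Fmo4, flavin monooxygenases, differed by -3.17 ± 0.37 and -5.15 ± 0.27. Glutathione transferases went both ways, with Gstm3 at -3.49 ± 0.40, Gstm2 at 2.56 ± 0.22 and Gsta3 at 3.03 ± 0.46.

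Genes of the smooth muscle list were mostly higher in lean stomach. Of 22 smooth muscle genes, the 11 in the table passed the filter, of which 6 were higher in stomach and 1 in duodenum, or 9 and 1 after rescaling and 9 and 1 without the 2 libraries. Des, the intermediate filament desmin, had 1145, 1521, 1510, 972 and 1382 CPM in lean stomach libraries 1 to 5. Its levels in lean duodenum libraries 1 to 5 were 223.2, 541.4, 908.8, 455.4 and 370.7 CPM. The difference was 1.96 ± 0.30. Lean duodenum library 3 was the highest of its group and still lay below all stomach libraries. Csrp1, a partner of actin-binding proteins, averaged 704 CPM ± 104 in stomach and 195 CPM ± 123 in duodenum, a difference of 2.51 ± 0.32. Fhl1, a LIM protein of skeletal and smooth muscle whose promoter is shown above, averaged 498 CPM ± 48.3 in stomach and 59.1 CPM ± 54.9 in duodenum, a difference of 3.84 ± 0.34. Myl9, a myosin light chain with a short transcript, differed by 1.27 ± 0.29, and by 0.21 with the length trend removed, where it did not pass. With CPM as deposited its call also ended when any of 8 libraries was left out (limma, adjusted p = 0.059 to 0.11). Pde5a, the phosphodiesterase of cyclic GMP, was the exception, with 32.6 CPM ± 11.2 in stomach and 95.8 CPM ± 31.8 in duodenum, a difference of -1.10 ± 0.17. In the lean skeletal muscle labelled edl, Des averaged 3780 CPM and Fhl1 1532 CPM, above stomach. Csrp1, at 25.2 CPM, and Myl9, at 22.6 CPM, were lower there than in stomach. The striated muscle list summed to 523 to 2021 CPM in lean stomach, and the part of striated muscle in these values was not tested.

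Of 30 matrix genes, 27 were in the table and 17 passed the filter. Among these 17, 9 were higher in stomach and 3 in duodenum, against 19.8% and 46.5% of all genes tested. After rescaling 12 and 2 were, against 33.7% and 32.4%. Dpt (dermatopontin) averaged 136 CPM ± 33.5 in stomach and 23.8 CPM ± 23.3 in duodenum, a difference of 3.28 ± 0.40. Igfbp5, another binder of insulin-like growth factors, differed by 2.79 ± 0.35, Postn (periostin) by 2.42 ± 0.35 and Ecm1 by 2.29 ± 0.16. Col3a1, a fibrillar collagen chain, averaged 206 CPM ± 52.5 in stomach and 104 CPM ± 53.7 in duodenum, a difference of 1.5 ± 0.24. Grem1, an antagonist of bone morphogenetic proteins made by fibroblasts below the crypts, had 18.3, 5.82, 5.46, 4.03 and 13.2 CPM in lean stomach libraries 1 to 5. The 5 duodenum libraries, in the same order, had 23.6, 57.8, 159.1, 58.8 and 37.8 CPM. The difference was -2.21 ± 0.40, opposite to most of the list. Thbs1, thrombospondin 1, was the other one lower in stomach, at -1.51 ± 0.34. Among 3 nerve and glia genes that passed, Syp (synaptophysin) was higher in stomach at 1.52 ± 0.21, and 2 were lower.

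Few leukocyte genes passed the filter. Ptprc (CD45), carried by all leukocytes and the only lymphoid list gene past the filter, had 5.34, 6.91, 6.00, 2.53 and 6.91 CPM in lean stomach libraries 1 to 5, against 28.0, 30.7, 27.9, 35.1 and 29.7 CPM in lean duodenum libraries 1 to 5. The difference was -1.91 ± 0.22. The summed lymphoid list of 21 genes was 10.2 to 24.4 CPM in stomach and 56.4 to 75.9 CPM in duodenum. Of 3 myeloid genes that passed the filter, 1, Ctss, was lower in stomach and 2 did not pass the test. Ctss, the lysosomal protease cathepsin S, averaged 14 CPM ± 3.33 in stomach and 198 CPM ± 48.4 in duodenum, a difference of -3.29 ± 0.26. Of 35 cell cycle genes, 33 were in the table and 15 passed the filter, of which 0 were higher in stomach and 9 in duodenum, or 3 and 7 after rescaling, against 19.8% and 46.5% of all genes tested (33.7% and 32.4% after rescaling). Hjurp, which loads the centromeric histone, differed by -1.24 ± 0.19, Cdca7 by -1.87 ± 0.19 and Nek2, a centrosomal kinase, by -1.54 ± 0.25. Pcna, the sliding clamp of DNA replication, differed by -0.50 ± 0.14.

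Respiratory chain genes depended on the scale and on transcript length. Of 27 genes in the list, 24 passed the filter. As deposited 10 were higher in stomach and 6 in duodenum, against 19.8% and 46.5% of all genes tested. After rescaling the counts were 14 and 2, against 33.7% and 32.4%. With the length trend removed they were 4 and 7, against 30.9% and 31.8%. Cox5b, a subunit of cytochrome oxidase with a short transcript, averaged 654 CPM ± 145 in stomach and 313 CPM ± 39.4 in duodenum, a difference of 1.48 ± 0.28, and 0.07 with the length trend removed. Ndufs1, the largest subunit of complex I, averaged 99.7 CPM ± 36.8 in stomach and 205 CPM ± 22.3 in duodenum, a difference of -0.66 ± 0.19. Among genes over 500 CPM in both tissues, the least different with CPM as deposited were Dbi, Atp5c1, Atp5f1, Phyh and Rps4x. Dbi, the acyl-CoA binding protein, averaged 738 CPM ± 211 in stomach and 714 CPM ± 163 in duodenum. Its difference was 0.47 ± 0.34 after rescaling and did not pass, but it was -1.35 with the length trend removed and passed there (limma, adjusted p = 0.00024). Atp5c1 and Atp5f1, subunits of ATP synthase, differed by 0.31 ± 0.20 and 0.25 ± 0.20 and did not pass. Phyh, a peroxisomal hydroxylase, differed by 0.75 ± 0.29 after rescaling and did not pass with CPM as deposited.

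The means of other lean tissues set these levels in context. Of the 268 genes at least 2-fold higher in stomach, 113 had their highest mean of 21 lean tissues in stomach, 21 in the muscle labelled edl, 16 in liver and 15 in colon. Of the 563 higher in duodenum, 121 had their highest mean in duodenum, 55 each in ileum and hypothalamus, 52 in colon, 47 in cerebellum, 36 in liver and 34 in jejunum. Both sets were picked by their difference between stomach and duodenum, and the shares over all genes tested were not taken. The counts are therefore descriptions. Some duodenal genes were shared along the small intestine and others were not. Cdh17 averaged 1341 CPM in duodenum, and in jejunum, ileum and colon 1177, 1209 and 633 CPM. Akp3 was at 5345 CPM in duodenum but at 3.85 CPM in jejunum and 0.649 CPM further on, in ileum. For Slc40a1 the means were 1061 CPM in duodenum, only 8.75 CPM in jejunum and 115 CPM for ileum. Lct was higher in jejunum, at 1448 CPM, than in duodenum, at 628 CPM. Clca4b was also higher in jejunum, at 1970 CPM, than in duodenum, at 677 CPM. On the stomach side, Chia1 averaged 2697 CPM in stomach and at most 2.50 CPM in any other tissue, while Tnnc2 averaged 696 CPM in stomach and 10463 CPM in edl. These orders were not tested.

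The DIO libraries gave the same contrast in 10 other libraries. For each tissue their library numbers came from the same series as those of the lean libraries. Tissue and series therefore cannot be told apart in this set either. In DIO mice, 382 genes (18.3%) were higher in stomach and 1030 (49.4%) in duodenum, or 677 (32.5%) and 663 (31.8%) after rescaling. Of the 268 genes at least 2-fold higher in lean stomach, 243 (90.7%) passed in the same direction in DIO mice. Of the 563 at least 2-fold higher in lean duodenum, 553 (98.2%) did. At 2-fold in both diets, 176 genes were higher in stomach, which is 96.7% of the 182 in DIO mice (8.74% of genes tested). In duodenum 394 were higher, 91.6% of the 430 in DIO mice (20.6%). The sign was opposite for 6 genes of the stomach side and 2 of the duodenal side.

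Chia1 had 5531, 2755, 1988, 2531 and 2287 CPM in DIO stomach libraries 1 to 5, against 0, 0, 0.0366, 0 and 0 CPM in DIO duodenum libraries 1 to 5. Its rescaled difference was 11.64 ± 0.20 in DIO mice and 11.42 ± 0.24 in lean mice. Sis averaged 0.0218 CPM ± 0.0488 in DIO stomach and 3242 CPM ± 1025 in DIO duodenum, a difference of -11.37 ± 0.24. S100g averaged 17 CPM ± 8.65 in DIO stomach and 800.2 CPM ± 386 in DIO duodenum, a difference of -5.09 ± 0.44. Among the gastric surface genes, Ctse had 1205, 1950, 1490, 1954 and 2951 CPM in DIO stomach libraries 1 to 5, against 97.1, 664.9, 253.6, 668.4 and 337 CPM in DIO duodenum libraries 1 to 5. Its difference was 2.87 ± 0.46 in DIO mice and 4.53 ± 0.55 in lean mice. The summed surface mucous list was 107 to 1030 CPM in DIO duodenum and 19.1 to 423 CPM in lean duodenum, so both groups held libraries with these genes.

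Whether the contrast differed between diets was tested as an interaction of tissue and diet. No gene passed (limma, 0 of 2083 called), with 294 at an unadjusted p under 0.05. The edgeR test also called 0, with 341 unadjusted. For Ctse the DIO minus lean change in the difference was -1.61 ± 0.82 (limma, adjusted p = 0.384). For Tnnc2 it was -2.17 ± 0.60 (limma, adjusted p = 0.19), with 136 CPM ± 69.7 in DIO stomach and 696 CPM ± 549.8 in lean stomach. With libraries weighted by their fit (array weights), 914 genes passed, and without lean duodenum library 3 163 passed. A count of 0 here does not show that the contrasts were alike.

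**Figure D5:**
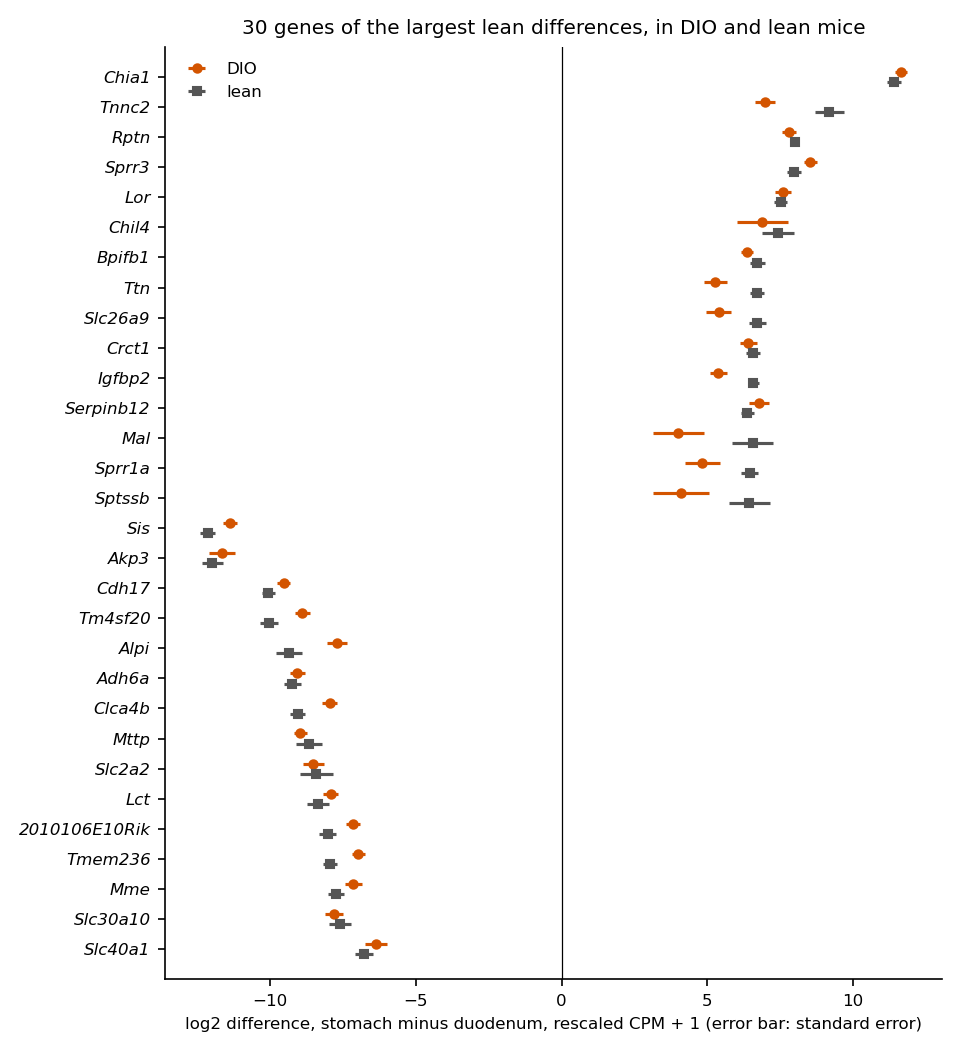
Difference between stomach and duodenum (rescaled log2(CPM + 1), horizontal axis, error bar the standard error) for the 15 genes furthest apart on each side in lean mice, in DIO mice and in lean mice (n = 5 libraries per tissue and diet). All 30 keep their side of 0 in DIO mice, from Chia1 at 11.64 to Akp3 at -11.66.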

How the data were processed

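Poly(A) RNA from frozen tissue was made into stranded libraries and sequenced in pairs, per the labels' protocols. Per the submitters' processing notes, STAR, HTSeq, FastQC and DESeq2 were used. Tool versions, genome build and strand setting were not given in the sources used here. Deposited by the authors was CPM per gene, with reads of the whole library as the base. Whole reads were recovered from 100.0% of the values within 0.001 of a whole number. Of the 205 columns, 1 was not matched to a label and not used, and 1 gene with missing values was left out. The closest of 40 pairs of replicate libraries differed by a chi-square per degree of freedom of 14.54, so all were counted separately.

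Genes whose mean over the 10 lean libraries reached 10 CPM were tested on log2(CPM + 1) with limma 3.58.1 (R 4.3.3), with a mean-variance trend, all genes together and Benjamini-Hochberg adjustment; calls were made at an adjusted p under 0.05. A pseudocount of 1 understates the change of genes at low levels. Alternatives were median-of-ratios rescaling, edgeR 4.0.16 and DESeq2 1.42.0 on the recovered reads, array weights, a pseudocount of 5, no filter, all lean tissues in one fit, a library index of 10 genes as a covariate, no short or ribosomal protein genes, and leaving out each library. Removing a smooth trend on the longest annotated transcript (GENCODE M21) and leaving out lean stomach library 5 with lean duodenum library 3 were chosen after seeing the data. The scripts were tested on simulated data. Libraries were compared by an exact permutation test, two-sided. A fold against a group at 0 takes 3 reads over the group as the floor and covers counting error only.

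Named genes were the 15 with the largest difference on each side among genes that passed, did not overlap between groups and had at least 50 CPM in the higher tissue, members of the gene lists, and the 5 least different over 500 CPM. The members and lists were chosen with earlier results of these data known.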

Additional observations from a re-analysis of the deposited data

Results flagged for a closer look

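In each group of 5 libraries, the level of every named gene was looked at for a library far from the others: a gap to the nearest library over 0.71 of the group's whole range. Over 270 such groups 57 were found, of which 21 were in lean duodenum library 3 and 20 in lean stomach library 5. For independent values with a normal spread, chance passes this cut in about 1 in 20 groups. CPM of genes that vary together need not meet this, so the 57 cannot be set against that rate. Some flags rest on few reads. That of Serpinb12 in lean duodenum library 2 was 1 read, and Chia1 had 4 reads in all of lean duodenum. Groups without a read, such as Rptn in lean duodenum, could not be flagged but were among the 270.

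In lean duodenum library 3, the highest of its group was seen for Dnajc10 at 657, Dpt at 64.2, Esrrg at 6.53, Fabp5 at 116 and Fhl1 at 156 CPM. The highest value of the lean duodenum libraries was that of library 3 for Foxa2 at 10.2, Grem1 at 159, Igfbp5 at 70.2, Lor at 0.158 and Mal at 70.6 CPM. Lean duodenum library 3 was also highest for Slc26a9 at 2.89, Slc9a4 at 73.2, Sox2 at 1.54, Sptssb at 94.99 and Vsig1 at 44.9 CPM. In lean duodenum library 3, the lowest of its group was seen for Alpi at 2507, Cdh17 at 819, Heph at 171, Pigr at 4771 and Slc6a8 at 264 CPM. The lowest value of the lean duodenum libraries was that of library 3 for Vil1 at 1059 CPM. Lean stomach library 5 was also highest for Adh1 at 151, Adh4 at 6.68, Apoa2 at 498, Ass1 at 108 and Cd302 at 22.6 CPM. In lean stomach library 5, the highest of its group was seen for Cdca7 at 15.99, Cps1 at 76.5, Fgb at 172, Fgg at 155 and Hjurp at 89.8 CPM. The highest value of the lean stomach libraries was that of library 5 for Lrat at 0.857, Mttp at 15.9, Nr1i3 at 15.2, Otc at 18.9 and Pck1 at 98.6 CPM. Lean stomach library 5 was also highest for Pdzk1 at 3.54, Slc2a2 at 12.8, Slc30a10 at 2.11, Slc40a1 at 12.8 and Uox at 159 CPM. In lean stomach library 1, the highest of its group was seen for Adh7 at 189, Chia1 at 5475, Esrrg at 161, Sprr3 at 486 and Ugt1a7c at 8.97 CPM. The highest value of the lean stomach libraries was that of library 4 for Lct at 0.805 and Sis at 0.690 CPM. Lean stomach library 4 was also lowest for Ctss at 8.28 CPM. In lean duodenum library 4, the highest of its group was seen for Cybrd1 at 804 and Pck1 at 42.3 CPM. The lowest value of the lean duodenum libraries was that of library 4 for Otc at 90.5 CPM. Lean duodenum library 1 was also highest for Adh4 at 99.3 and Gsta3 at 55.5 CPM. In lean duodenum library 5, the highest of its group was seen for Tnnc2 at 0.163 CPM. The lowest value of the lean duodenum libraries was that of library 5 for Chia1 at 0 CPM. Lean duodenum library 2 was also highest for Serpinb12 at 0.0463 CPM.

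Among the genes that were high in lean duodenum library 3, Sptssb, Mal and Vsig1 were higher in stomach. Grem1, also high there, was lower in stomach, and Dnajc10 did not pass with either scale. That library also had the highest sums of its group for the nerve and glia list, 232 CPM, and the cell cycle list, 927 CPM. Among the genes low there, Alpi, Cdh17 and Vil1 were lower in stomach. In lean stomach library 5 the high genes were mostly those that liver also makes, such as Fgb, Fgg, Uox and Cps1. The part of neighbouring tissue in these values was not tested.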

How the results depend on the processing

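The counts of genes that passed were within 1.5 times of those reported under every setting except 3 kinds. With no filter on low levels, 2464 genes passed in lean mice (973 higher in stomach, 1491 in duodenum), 1280 at 2-fold or more and 2520 in DIO mice; more genes were tested. The interaction of tissue and diet gave 0 with libraries weighted alike, 914 with array weights and 0 to 163 when 1 library was left out, with 163 without lean duodenum library 3 and 1 without DIO stomach library 2; the cause was not tested. Leaving out 1 library at a time gave 1265 to 1427 genes in lean mice, 781 to 898 at 2-fold and 1288 to 1415 in DIO mice. The split between tissues moved with the scale: 670 higher in stomach and 681 in duodenum with edgeR, 740 and 710 with DESeq2, 535 and 1137 with array weights, and 643 and 663 with the length trend removed. Without short and ribosomal protein genes it was 331 and 959 of 1976. Of 131 named genes that were tested, 115 kept their direction and call under all settings. Many of them were chosen for passing with large differences in these same libraries, so this share does not stand for all genes tested. Over all genes tested, 294 passed only with CPM as deposited and 290 only after rescaling. The sign turned for 5 of the named genes, none of which passed as deposited. Atp5c1 was -0.13 as deposited and 0.31 with DESeq2, 0.28 with edgeR and 0.31 rescaled. Atp5f1 was -0.19 and 0.23, 0.20 and 0.25 in those settings, and 0.03 with the length trend removed. Dbi was 0.02 and -0.01 with array weights, -0.06 with the library index as a covariate, -1.35 with the length trend removed, where it passed (adjusted p = 0.00024), -0.12 without the 2 libraries and -0.12, -0.07 and -0.08 without lean duodenum library 3 or lean stomach library 2 or 4, and up to 0.22 without another library. Dnajc10 was -0.21 and 0.23 rescaled, 0.33 with the length trend removed, 0.25 without the 2 libraries and 0.41 without lean duodenum library 3, with a low of -0.55 without lean duodenum library 1. Rps4x was 0.47 and -0.34 with the length trend removed. Clca1 passed as deposited but not with DESeq2 or edgeR, and leaving out 1 library ended the call of Chgb, Myl9, Pck1 or Uox for 4 to 8 libraries. No paired analysis was possible because the labels do not tie a library to a mouse and replicate numbers follow the order of the samples. Depth limits genes below the filter, of which several are named with their levels only.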

Other observations

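Gene symbols were also grouped by their first letters, after the values had been seen. Of 45 solute carrier (Slc) genes that passed the filter, 6 were higher in stomach and 30 in duodenum, against 19.8% and 46.5% of all genes tested, or 9 and 27 after rescaling. Of 9 S100 genes, which encode small calcium-binding proteins, 7 were higher in stomach and 1 in duodenum, and the same counts held after rescaling. Of 10 proteasome (Psm) genes, 2 were higher in stomach and 1 in duodenum as deposited, 8 and 0 after rescaling, and 3 and 1 with the length trend removed. Of 14 zinc finger (Zfp) genes, 1 was higher in stomach and 3 in duodenum as deposited, 3 and 2 after rescaling and 7 and 2 with the length trend removed, so the balance turned with the scale. Among all genes tested the shares were 33.7% and 32.4% after rescaling and 30.9% and 31.8% with the length trend removed.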
